A study of Mus musculus with 6 samples.

Results

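The 10 genes described here encode the transcription factors and the non-collagenous matrix proteins that mark cartilage, and they were taken by name from a table of 56748 genes. They are *Sox9*, *Sox5*, *Sox6*, *Acan*, *Hapln1*, *Comp*, *Matn3*, *Chad*, *Cnmd* and *Prg4*. They were selected on these same libraries, by the rise of *Acan*, *Comp* and *Cnmd* between genotypes beside the small difference of *Sox9*, so the differences between genotypes of these 10 genes are given as a description with no test.

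SOX9 is the transcription factor on which the chondrocyte fate depends, and SOX5 and SOX6 act beside it on the enhancers of cartilage matrix genes. Aggrecan, the product of *Acan*, is the large proteoglycan whose chondroitin sulfate chains hold water in cartilage, and link protein, the product of *Hapln1*, ties it to hyaluronan. COMP, matrilin 3 and chondroadherin connect collagen fibrils with the rest of the matrix, chondromodulin keeps cartilage free of vessels, and lubricin, the product of *Prg4*, coats the joint surface and is made by superficial chondrocytes and by the lining cells of the synovium. Mature osteocytes are not known as a main source of these proteins.

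The data are RNA sequencing of 6 osteocyte cultures, 3 of WT and 3 labelled cKO. The labels give no allele for cKO, and the conditional knockout in the methods is *Gsdmd* fl/fl; DMP1-Cre. In these mice the floxed alleles of gasdermin D, the pore-forming protein of pyroptosis, are cut by a Cre recombinase driven by the *Dmp1* promoter, and the methods name the WT strain as C57BL/6 for the isolation of the cells and as C57BL/6J for their stimulation. Cells came from limb bones of mice aged 7 weeks, with the epiphyses cut off and the marrow flushed out, were grown for 7 days, and every culture was given 10 ng/mL of LPS and, 3 h later, 20 µg/mL of aluminum hydroxide for a further 3 h. No unstimulated culture was analysed here, and nothing states that the 3 cultures of a genotype came from separate animals, so that p-values measure the spread between these cultures, which may be technical.

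The counts on genes summed to between 39566835 and 49734046 per library. *Gsdmd* had 549 to 699 counts per WT library and 885 to 1045 in the cKO-labelled libraries, a log2 fold change of 0.69 (standard error 0.083) against the direction of the label, and the gene count does not separate the floxed exons from the rest. *Xist*, transcribed from the inactive X chromosome, had 0 to 4 counts in WT and 44817 to 51216 in the cKO-labelled libraries, and the Y-linked genes *Ddx3y*, *Uty*, *Eif2s3y* and *Kdm5d* had 0 counts in every cKO-labelled library, at least 1505-fold, 477-fold, 500.1-fold and 435-fold lower than in WT. The genotype label and this sex-linked difference cannot be told apart. The methods state that mice were matched in age and sex, which these sex-linked counts do not bear out. Of the defining markers of osteocytes, *Sost* had 0 counts in all 6 libraries, *Mepe* at most 2, *Dmp1* at most 6, *Phex* 2 to 22 and *Fgf23* 0 to 34, while *Pdpn*, which other cells also express, had 7743 to 11932. In bulk RNA of this kind, fewer cells of a type and less RNA per cell cannot be told apart.

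Of the 10 genes, 8 passed edgeR's filter on low counts, and *Matn3* and *Chad* did not. *Acan* and *Cnmd* passed it through the cKO-labelled libraries. Levels are given as counts, as counts per 1000000 of the scaled library (CPM), or, between genes, as CPM per kilobase of gene length. All 8 tested genes had CPM ranges of the genotypes that did not overlap, 6 of them higher and 2 lower in the cKO-labelled libraries, beside 25.3% and 23.9% of all 17146 tested genes (49.2% in either direction). Since this contrast chose the genes, nothing is read from that count.

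**Figure D1:**
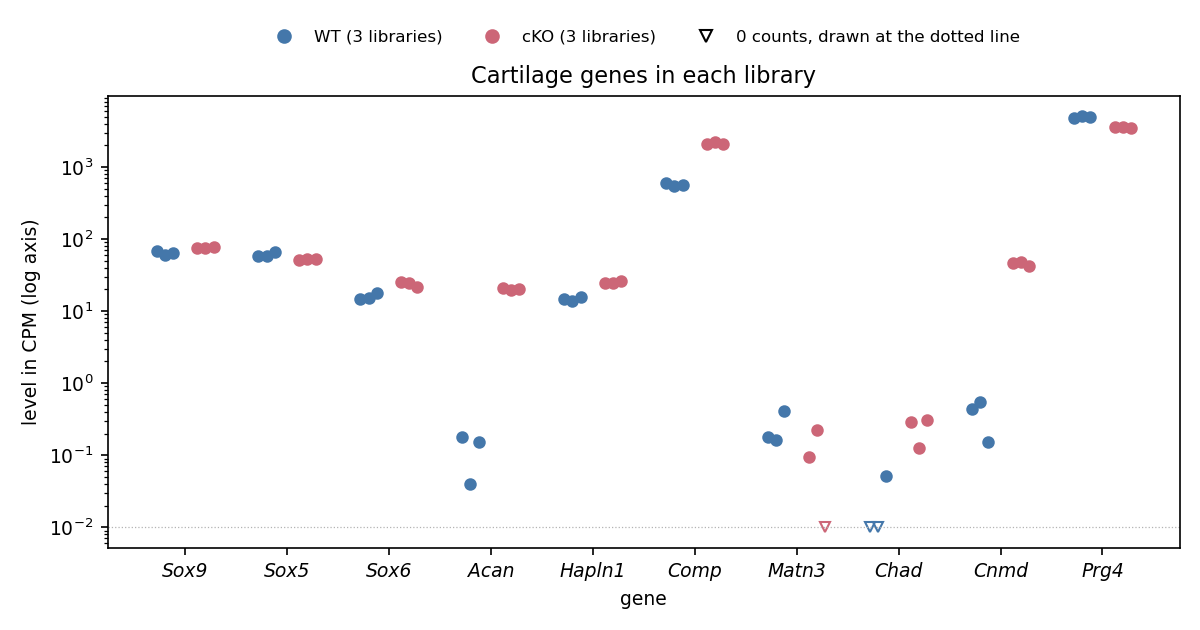
Level in CPM on a log axis of the 10 cartilage genes, with 1 point for each of the 3 WT and 3 cKO libraries and open triangles at the dotted line for 0 counts. *Acan* and *Cnmd* lie below 1 CPM in WT and above 19 CPM in the cKO-labelled libraries, whereas the points of *Sox9* and *Sox5* lie close together. Those of *Sox6* run from 14.6 CPM in WT to 25.1 CPM in the cKO-labelled libraries.

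The 3 SOX genes were expressed in every library. *Sox9* and *Sox5* differed little between genotypes, and *Sox6* differed more. *Sox9*, on chromosome 11 of mm39 from 112673050 to 112678586, was counted 3070, 2962 and 2489 times in WT replicates 1, 2 and 3 and 3189, 2971 and 3496 times in replicates 1, 2 and 3 labelled cKO. After scaling this was 68.2, 59.7 and 64.1 CPM in WT and 75.8, 74.7 and 77.0 CPM in the cKO-labelled libraries. The ranges were close but did not overlap, and the log2 fold change was 0.24 (standard error 0.054), or 1.18-fold between means.

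*Sox5*, which has no transactivation domain of its own, differed in the other direction. It stood at 57.7, 58.6 and 66.0 CPM in WT and at 51.1, 52.7 and 53.6 CPM in the cKO-labelled libraries, a log2 fold change of -0.21 (standard error 0.057). *Sox6*, its closest relative, stood at 14.6, 15.2 and 17.8 CPM in WT and at 25.1, 24.8 and 21.9 CPM in the cKO-labelled libraries, a log2 fold change of 0.59 (standard error 0.092). The pair therefore shifted against each other. Per kilobase, *Sox5* exceeded *Sox6* by 3.82 to 4.07 times in the WT libraries and by 2.10 to 2.52 times in the cKO-labelled libraries. *Sox5* covers chromosome 6 from 143774151 to 144727703 and *Sox6* chromosome 7 from 115070107 to 115638031, and antisense genes lie in both. *Sox5os1* shares 1385 exon bases with *Sox5* but had at most 17 counts, and *Sox6os* had 0, so few reads were counted on them. How reads in shared bases were handled is not given in the sources used here.

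*Acan* went from close to nothing to a moderate level. It spans chromosome 7 of mm39 from 78703231 to 78764847 on the plus strand and overlaps no other gene of the table. WT replicates 1, 2 and 3 had 8, 2 and 6 counts of it and the cKO-labelled replicates 871, 782 and 922, which is 0.178, 0.0403 and 0.155 CPM against 20.7, 19.7 and 20.3 CPM. No WT library came near any cKO-labelled library. The log2 fold change was 7.36 (standard error 0.36), and the summed counts differed 169-fold, with an exact 95% interval of 104 to 296 that covers counting error only. Such intervals take each count as independent and would be too narrow if each mate of a read pair was counted. In the cKO-labelled libraries the standard deviation was 2.58% of the mean, and in WT, with so few counts, 59.2%.

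*Hapln1*, which encodes the protein that anchors aggrecan, had a smaller difference and was expressed in both genotypes. It was counted 658, 691 and 608 times in WT and 1018, 978 and 1193 times in the cKO-labelled libraries. This was 14.6, 13.9 and 15.7 CPM against 24.2, 24.6 and 26.3 CPM, with no overlap. The fitted log2 difference was 0.77 (standard error 0.081). The RNA levels of the 2 genes were far apart in WT, where *Acan* had 2 to 8 counts per library. Per kilobase, *Hapln1* exceeded *Acan* by 104 to 437 times in the WT libraries and by 1.48 to 1.64 times in the cKO-labelled libraries.

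*Cnmd*, on chromosome 14 of mm39 from 79875130 to 79899610 on the minus strand, followed the pattern of *Acan*. It was counted 20, 27 and 6 times in WT and 1956, 1902 and 1934 times in the cKO-labelled libraries, which is 0.444, 0.544 and 0.155 CPM against 46.5, 47.8 and 42.6 CPM. The log2 fold change was 6.84 (standard error 0.24), and the summed counts differed 115-fold, with an exact 95% interval of 87.5 to 153. WT replicate 3 was the lowest library for *Cnmd*, and WT replicate 2 for *Acan*. *Tnmd*, the gene of tenomodulin, the closest relative of chondromodulin, stood at 1.73 ± 0.911 CPM in WT and 2.19 ± 0.194 CPM in the cKO-labelled libraries (SD, n = 3 each), and it did not pass the test (adjusted p = 0.48 by edgeR's quasi-likelihood test).

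The promoter windows of *Acan* and *Cnmd* are shown because these 2 genes moved together from near 0, and that of *Hapln1* because it encodes the partner of aggrecan and was expressed in both genotypes. Each runs from 250 bases before the annotated start to 50 after it, 5′ to 3′ on the strand of the gene, from RefSeq on GRCm38.p6, at chr7:79052976-79053275 (plus), chr14:79662134-79662433 (minus) and chr13:89540386-89540685 (plus). The table of promoters matched 7 of the 10 genes, *Comp*, *Sox9* and *Prg4* not among them. Capitals mark matches of AACAAT and ACAAAG, motifs of SOX factors, of TGTGGT, the core of RUNX sites, and of GGGCGG, the GC box, all on both strands, and of TATAAA, the TATA box, on the given strand.
Acan promoter: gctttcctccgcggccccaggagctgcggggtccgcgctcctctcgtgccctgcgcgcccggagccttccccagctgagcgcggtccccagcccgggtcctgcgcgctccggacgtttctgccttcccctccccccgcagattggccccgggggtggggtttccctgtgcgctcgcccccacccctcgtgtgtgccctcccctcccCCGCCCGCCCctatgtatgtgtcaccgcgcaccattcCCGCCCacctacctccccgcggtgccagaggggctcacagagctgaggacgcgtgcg
Cnmd promoter: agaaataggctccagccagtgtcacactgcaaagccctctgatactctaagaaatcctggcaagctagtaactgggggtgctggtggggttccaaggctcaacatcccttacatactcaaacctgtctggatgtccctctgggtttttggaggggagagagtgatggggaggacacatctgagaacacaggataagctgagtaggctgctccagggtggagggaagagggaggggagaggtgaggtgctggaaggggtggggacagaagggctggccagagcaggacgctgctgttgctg
Hapln1 promoter: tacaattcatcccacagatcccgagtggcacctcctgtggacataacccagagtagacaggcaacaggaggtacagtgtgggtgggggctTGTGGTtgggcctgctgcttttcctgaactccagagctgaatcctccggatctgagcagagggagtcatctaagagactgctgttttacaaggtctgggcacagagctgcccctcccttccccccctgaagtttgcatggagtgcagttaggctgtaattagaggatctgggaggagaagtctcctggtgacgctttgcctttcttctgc
The window of *Acan* was 74.0% G and C, above 95.2% of the 32851 windows of the table, and held 3 GC boxes on the opposite strand, starting at -44, -40 and -7, of which the first and the second overlap. That of *Cnmd* was 56.0% G and C and matched none of the motifs, and that of *Hapln1* was 54.3% G and C and held 1 RUNX motif at -160. Neither SOX motif occurred in the windows of *Acan*, *Cnmd*, *Hapln1*, *Matn3*, *Chad* or *Sox5*, and 5 of the 6 windows of *Sox6* held ACAAAG. The only window of *Sox5* was at chr6:143947057-143947356 (minus). It was not matched to the start of the deposited gene, and no other start of *Sox5* was examined. Among all windows, 27.0% held at least 1 of the 2 SOX motifs, 16.8% the RUNX motif, 35.7% a GC box and 8.32% the TATA box.

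*Comp* was abundant in both genotypes. It lies on chromosome 8 of mm39 from 70826208 to 70834716, overlaps no other gene, and was counted 26883, 27222 and 21551 times in WT and 87466, 87619 and 93964 times in the cKO-labelled libraries. This was 597, 549 and 555 CPM against 2079, 2203 and 2068 CPM. The lowest cKO-labelled library was far above the highest WT library, and the log2 fold change was 1.90 (standard error 0.039), or 3.73-fold between means.

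*Matn3* and *Chad*, the other 2 fibril-associated proteins of cartilage, were barely detected. *Matn3* had 8, 8 and 16 counts in WT and 4, 9 and 0 in the cKO-labelled libraries, and the genotypes overlapped. The summed counts were 2.35-fold higher in WT, with an exact 95% interval of 1.20 to 4.87 for counting error only. This interval takes each count as independent. It would be too narrow if each mate of a read pair was counted, so no difference is read from it. *Chad* had 0, 0 and 2 counts in WT and 12, 5 and 14 in the cKO-labelled libraries, without overlap, a 16.3-fold ratio whose exact interval ran from 4.14 to 140. *Chad* lies inside the span of *Acsf2* on the opposite strand, a gene with 409 to 652 counts and no shared exon in GENCODE M39. Whether reads were counted by strand is not given in the sources used here.

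*Prg4* had the highest level of the 10 and was lower in the cKO-labelled libraries. It spans chromosome 1 of mm39 from 150325163 to 150341916 and was counted 214243, 250763 and 193005 times in WT and 149624, 144129 and 160321 times in the cKO-labelled libraries. This was 4760, 5053 and 4972 CPM against 3556, 3625 and 3529 CPM, with no overlap. The fitted log2 difference was -0.47 (standard error 0.030). *Tpr*, on the opposite strand, shares 350 exon bases with it and had 7958 to 10792 counts, far fewer than *Prg4*. Per kilobase, *Prg4* ranked 17 among the tested genes in WT and 29 in the cKO-labelled libraries, and it took 0.475% to 0.504% of all counts in WT and 0.355% to 0.364% in the others.

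Together the 10 genes had nearly the same total in both genotypes, 5513 to 5750 CPM in WT and 5840 to 6073 CPM in the cKO-labelled libraries, but a different make-up. *Prg4* held 86.3% to 87.9% of that total in WT and 59.7% to 60.5% in the cKO-labelled libraries. *Comp* held 9.54% to 10.8% and 35.4% to 36.3%, and the other 8 genes together 2.58% to 2.89% and 4.03% to 4.15%. *Acan* and *Cnmd*, with the highest fold differences of the 10, thus made up little of the total in either genotype.

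**Figure D2:**
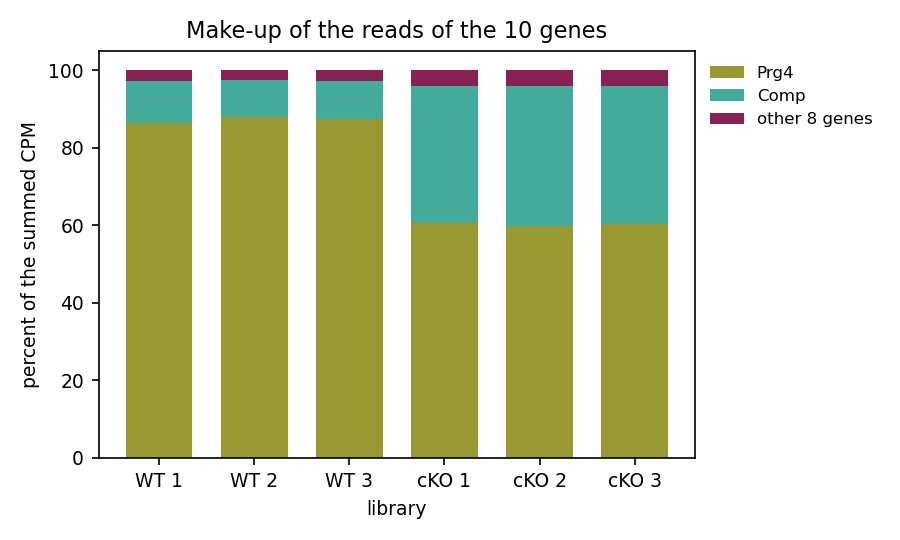
Percent of the summed CPM of the 10 genes taken by *Prg4*, by *Comp* and by the other 8 genes, as 1 stacked bar for each library. *Prg4* takes 86.3% or more in each WT bar and 60.5% or less in each cKO bar, and the replicates of a genotype look alike.

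Scaled for gene length, the order of the levels in WT was *Prg4* (1152 CPM per kilobase), *Comp* (191), *Sox9* (15.5), *Sox5* (4.23), *Hapln1* (2.50), *Sox6* (1.07), *Cnmd* (0.207), *Matn3* (0.0831), *Acan* (0.0166) and *Chad* (0.0102). The library ranges of neighbours in that order overlapped for *Cnmd* and *Matn3* and for *Acan* and *Chad*, and for no other neighbours. In the cKO-labelled libraries the order was *Prg4* (834 CPM per kilobase), *Comp* (713), *Cnmd* (24.8), *Sox9* (18.3), *Hapln1* (4.24), *Sox5* (3.65), *Acan* (2.71), *Sox6* (1.61), *Chad* (0.143) and *Matn3* (0.0355), and here the ranges of *Chad* and *Matn3* overlapped. *Cnmd* thus passed from below all 3 SOX genes to above them, and *Acan* from near the bottom to between *Sox5* and *Sox6*. Of the tested genes, 0.303% lay below *Acan* in WT and 44.7% in the cKO-labelled libraries, and 10.4% and 89.7% lay below *Cnmd*. *Sox9* lay above 83.4% of the tested genes in WT and above 85.7% in the cKO-labelled libraries. Per kilobase, *Sox9* exceeded *Acan* by 693 to 2675 times in the WT libraries and by 6.61 to 6.86 times in the others.

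**Figure D3:**
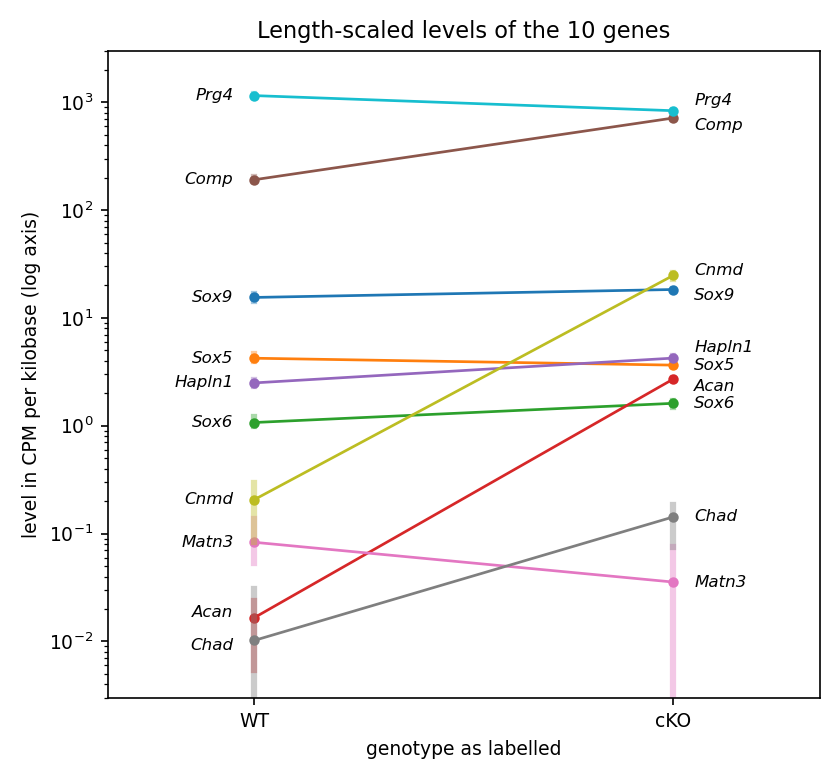
Mean level in CPM per kilobase of gene length on a log axis for each of the 10 genes in the WT and the cKO libraries, with pale bars for the range over the 3 libraries, cut off at the lower edge where a library had 0 counts. The lines of *Acan* and *Cnmd* cross those of other genes, from 0.0166 to 2.71 and from 0.207 to 24.8, while that of *Sox9* stays near 15.5 to 18.3.

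The genes whose profiles over the 6 libraries lay nearest were found by the Euclidean distance between centred log2 CPM values. For *Acan* they were *Col9a2*, *Gpr183* and *Tsix* (distances 1.90, 1.96 and 1.99), and for *Cnmd* *Gpr183*, *Nrap* and *Gm28417* (1.85, 1.98 and 2.21), all of them with 0 CPM in WT. For *Comp* they were *Cacna1d*, *Rspo2* and *Maf* (0.100, 0.105 and 0.158), and for *Sox9* *Gpalpp1*, *Plekha1* and *Tor1aip1* (0.0528, 0.0546 and 0.0549). The distances for *Acan* and *Cnmd* are large because a few counts in WT move a log value far, and genotype fixes most of every profile, so the distances are a description.

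To see which other cartilage genes moved, 89 genes in 7 lists were examined, of which 88 were in the table and 75 were tested. The lists were written with earlier results of these data known, so their shares of calls are a description. A gene is called here at an adjusted p below 0.05 and a log2 fold change of at least 1 in size. Of the 75 genes, 15 (20.0%) passed upward and 4 (5.33%) downward, beside 6.56% and 4.64% of all tested genes. Their median log2 fold change was 0.041, close to the 0.0077 of all tested genes. Without the limit on the fold, 29 rose and 18 fell, beside 20.1% and 19.2% of all tested genes, and 28 did not pass. The calls were uneven between the lists, with 5 of the higher genes among further matrix genes, 5 among collagens and 2 among matrilins.

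**Figure D4:**
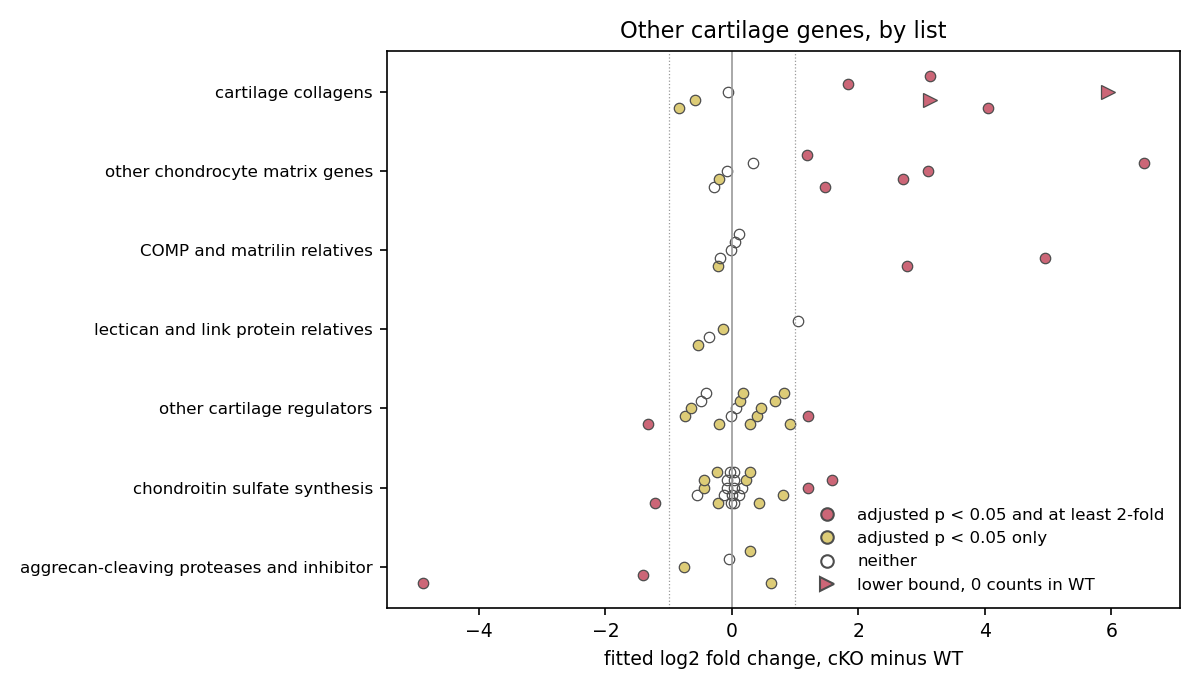
Fitted log2 fold change, cKO minus WT, of the tested genes of the 7 lists, with 1 point for each gene, filled by whether it passed the test, dotted lines at -1 and 1, and triangles for the lower bounds of *Col9a1* and *Col9a2*. Points far to the right lie in the upper 3 lists, whereas most points of the chondroitin sulfate list lie between the dotted lines.

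Of the 9 tested genes among 13 further chondrocyte matrix genes, 5 were called higher and none lower, with a median log2 fold change of 1.19. *Scrg1* had 0, 0 and 2 counts in WT and 71, 62 and 76 in the cKO-labelled libraries (ratio 110, exact 95% interval 30.0 to 911, adjusted p = 5.15e-07). *Ucma*, a secreted protein of resting cartilage, had 2 to 10 counts in WT and 27 to 52 in the cKO-labelled libraries (adjusted p = 0.000307). *Ecrg4* rose from 14.9 ± 2.02 to 97.5 ± 6.22 CPM, and *Fmod*, the gene of the collagen-binding fibromodulin, from 1794 ± 81.2 to 4093 ± 79.1 CPM (SD, n = 3 each). *Chadl*, the relative of *Chad*, had a log2 fold change of 1.48 (adjusted p = 1.91e-05), and is named after its value was seen. *Prelp*, a leucine-rich protein of the same kind as fibromodulin, fell by 0.21 on the log2 scale, 2018 against 1747 CPM (adjusted p = 1.72e-05). Other defining genes stayed near nothing, with 0 counts of *Mia* and *Clec3a* in all libraries and 0, 10 and 4 counts of *Snorc* in the cKO-labelled libraries.

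Among the relatives of COMP, the matrilins, *Acan* and *Hapln1*, 2 matrilins were called higher and no other gene was called. *Matn4* rose from 2.02 ± 0.277 to 13.9 ± 1.87 CPM (SD, n = 3 each), with a fitted log2 difference of 2.78 and an adjusted p of 8.9e-11. *Matn1*, which is found in few tissues other than cartilage, had 0, 2 and 0 counts in WT and 27, 22 and 20 in the cKO-labelled libraries (ratio 36.2, exact 95% interval 9.64 to 305, adjusted p = 0.000152). *Matn2* did not pass (log2 fold change 0.12, adjusted p = 0.289). Of the 4 other thrombospondins, the family to which COMP belongs, *Thbs2* fell slightly (log2 fold change -0.22, adjusted p = 0.000468) and the other 3 did not pass. The list of COMP and matrilin relatives had 2 of 7 genes called higher, none lower and a median of 0.054. Of the lecticans and link proteins related to *Acan* and *Hapln1*, 4 of 6 were tested and none was called, with a median of -0.24. *Vcan*, the gene of versican, was far above *Acan* at 503 ± 37.4 CPM in WT and 458 ± 16.0 CPM in the cKO-labelled libraries (log2 fold change -0.13, adjusted p = 0.0339), and *Hapln4* had a log2 fold change of -0.54 (adjusted p = 0.0164). Both genes had an adjusted p above 0.05 under some alternatives. For *Vcan* this was so with scaling by library size only (0.0589) and without WT replicate 3 (0.0833). It was also so without cKO replicate 1 or 2 (0.124 and 0.145). For *Hapln4* it was so without WT replicate 1 or cKO replicate 1 (0.0652 and 0.098).

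The collagens of cartilage split. *Col2a1*, the main fibrillar collagen of cartilage, was counted 67681, 66915 and 55555 times in WT and 31359, 32218 and 38061 times in the cKO-labelled libraries, and fell from 1428 ± 77.7 to 798 ± 47.5 CPM (SD, n = 3 each), with a fitted log2 difference of -0.84 and an adjusted p of 7.47e-11. *Col9a2* and *Col9a1*, chains of the collagen that decorates type II fibrils, had 0 counts in every WT library and 168 to 187 and 24 to 28 in the cKO-labelled libraries, at least 61.7-fold and 8.79-fold higher with the floor at 3 counts per library. *Col9a3* rose from 0.508 to 8.58 CPM, and *Col11a2* and *Col27a1*, named after their values were seen, had log2 fold changes of 3.14 and 1.84. *Col11a1*, also named afterwards, stood at 361 CPM in WT and 347 CPM in the cKO-labelled libraries. It did not pass (log2 fold change -0.056, adjusted p = 0.3). In all, 5 of 8 were called higher and none lower, with a median of 2.49, which was the same with both lower bounds in place of the fitted values. *Col10a1*, the marker of hypertrophic chondrocytes, fell by 0.58 on the log2 scale (adjusted p = 0.0361). It did not pass without WT replicate 2 or cKO replicate 1 or 2 (adjusted p = 0.151, 0.16 and 0.0886). The libraries in which *Acan* was nearly absent were thus the ones with more *Col2a1*.

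Among the other regulators of cartilage, 17 were tested, of which 1 was called in each direction, and their median was 0.14. Without the fold limit, 9 rose and 4 fell. *Nkx3-2*, a repressor that acts with SOX9 in the early chondrocyte, rose from 1.87 ± 0.761 to 4.34 ± 0.0621 CPM (SD, n = 3 each; adjusted p = 0.000699), *Mef2c*, a driver of hypertrophy, had a log2 fold change of 0.92, and *Pth1r*, the receptor of PTHrP, of 0.82. *Prkg2*, a kinase of the growth plate, fell by 1.32 on the log2 scale (adjusted p = 4.18e-07), and *Bmpr1b* and *Runx3* fell by 0.75 and 0.65. Without WT replicate 1 none of the 17 was called higher, and without WT replicate 3 the number was 2. *Sox10*, which was not tested, had 6 to 11 counts in WT and 0 in the cKO-labelled libraries.

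The enzymes that build the chondroitin sulfate chains of aggrecan were expressed in both genotypes, and most differed little. Among the 24 that were tested, 2 calls were upward and 1 downward, and 13 did not pass at any fold, with a median of 0.015. *Xylt1*, which starts the chains on the core protein, rose from 60.7 ± 3.25 to 139 ± 0.908 CPM (SD, n = 3 each; adjusted p = 1.63e-12), and its relative *Xylt2* had a log2 fold change of 0.81. *Chst11*, which adds sulfate at the 4 position, fell from 240 ± 1.49 to 103 ± 4.77 CPM (SD, n = 3 each; adjusted p = 2.84e-13), while *Chst3*, which adds it at the 6 position, had a log2 fold change of 1.58 on 6 to 69 counts (adjusted p = 0.0204). The call of *Chst3* was lost without WT replicate 1, WT replicate 3 or cKO replicate 3 (adjusted p = 0.0833, 0.0512 and 0.0845), which left 1 gene called higher. *Chpf* and *B3galt6* fell by 0.44 and 0.45 on the log2 scale, and the latter did not pass without cKO replicate 3 (adjusted p = 0.0559).

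Of the proteases that cut aggrecan, the 2 best-known aggrecanases differed little. *Adamts5* stood at 591 ± 26.9 CPM in WT and 720.2 ± 4.69 CPM in the cKO-labelled libraries (SD, n = 3 each; log2 fold change 0.29, adjusted p = 8.84e-06), and *Adamts4* did not pass (log2 fold change -0.046, adjusted p = 0.661). *Adamts1* rose by less than the fold limit (log2 fold change 0.62). *Adamts9* fell from 27.3 to 10.3 CPM and *Adamts15* from between 22 and 26 counts to 0, 0 and 2, a ratio of 34.3 with an exact 95% interval of 9.17 to 289. *Timp3*, the inhibitor of these enzymes, fell from 1779 ± 79.4 to 1048 ± 55.9 CPM (SD, n = 3 each; adjusted p = 7.78e-11). Over the 6 tested genes the calls were 2, both downward, and the median was -0.40.

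Markers of other cell types moved between the same libraries. All 12 macrophage markers were tested and called higher in the cKO-labelled libraries, with a median log2 fold change of 3.16, *Fcgr1*, *Ms4a7* and *C1qa* leading, and their summed level went from between 1186 and 1338 CPM to between 6313 and 6610 CPM. The osteoblast list fell in sum from between 13562 and 15401 CPM to between 9043 and 9260 CPM, with *Col1a1* and *Spp1* lower, *Ibsp* and *Alpl* higher, and 1 of 5 tested genes past the fold limit, upward. *Sp7* had a log2 fold change of -0.59 and did not pass under several alternatives (adjusted p = 0.0504 to 0.145). Of 6 osteocyte markers only *Pdpn* was tested, and it fell by 0.28 on the log2 scale. The tendon list, which shares *Fmod*, *Tnmd* and *Thbs4* with lists above, rose in sum from between 1832 and 1994 CPM to between 4184 and 4346 CPM, most of it *Fmod*. *Egr1*, an early response gene, had a log2 fold change of 0.84. *Scx*, the defining transcription factor of tendon, had one of -0.26 and did not pass without cKO replicate 2 or 3 (adjusted p = 0.0703 and 0.0547). The endothelial list rose in sum from between 11.4 and 13.3 CPM to between 20.6 and 23.7 CPM, with *Kdr* and *Vwf* called higher and *Emcn*, *Cdh5* and *Pecam1* lower, the last of these with a call that was lost without WT replicate 2 or 3 or cKO replicate 1 or 2. The part of these shifts in the levels of the 10 genes was not tested.

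**Figure D5:**
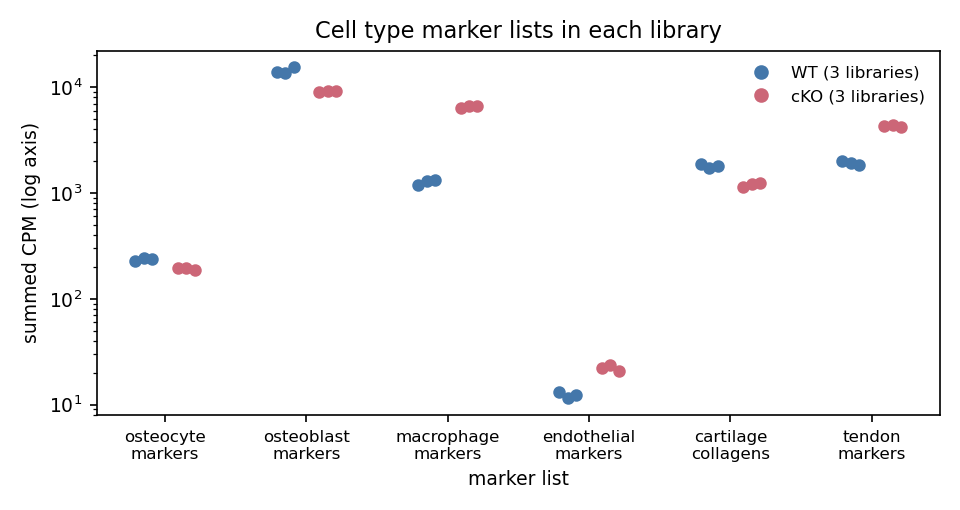
Summed CPM on a log axis of 6 marker lists, with 1 point for each of the 3 WT and 3 cKO libraries. The macrophage list lies between 1186 and 1338 CPM in WT and between 6313 and 6610 CPM in the cKO-labelled libraries, while the osteoblast list and the cartilage collagens lie lower there.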

How the data were processed

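RNA from 3 WT and 3 cKO cultures was sequenced as 150 bp paired-end reads from a directional kit. The authors trimmed the reads, aligned them to mm39 with HISAT2 2.0.5, counted them with featureCounts and deposited raw counts per gene with a gene length in bases, without normalization. The featureCounts release differs between the labels and the methods, which also name RSEM for quantification, and the strand setting is not given in the sources used here. Even numbers made up 63.4% to 65.7% of the counts between 1 and 10, a pattern that counting each mate would give. In GENCODE M39 on GRCm39, 7 of the 10 genes share a start or an end with the deposited coordinates, and deposited coordinates are given.

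From the deposited counts, the genotypes were compared by edgeR 4.0.16 under R 4.3.3 (filterByExpr, TMM, glmQLFit, glmQLFTest, genotype as the only term), with Benjamini-Hochberg adjustment over 17146 genes. Standard errors come from the Fisher information of the fit and the posterior quasi-dispersion. CPM use the TMM-scaled library size. Intervals of ratios are exact (binomial on summed counts, 95%) and leave out any error but that of counting, as PCR copies were not marked. They take each count as independent, and would be too narrow if each mate of a read pair was counted. A group at 0 counts was set to 3 counts per library for lower bounds. Chi-square per gene between replicates was 4.71 to 13.0, above sampling noise, and each library counted as 1 replicate. The procedure was tested on simulated data.

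The 10 genes and all lists were chosen with earlier results of these data known. The 7 cartilage lists hold relatives of the 10 genes, other matrix genes, regulators, chondroitin sulfate enzymes, aggrecan-cleaving proteases and collagens, and the other lists hold markers of osteocytes, osteoblasts, macrophages, tendon and endothelium and sex-linked genes. Genes named were the 10 genes, *Gsdmd*, the sex-linked genes, up to 3 genes with the largest rise and 3 with the largest fall among those that passed in each list, and the 3 nearest profiles of *Acan*, *Comp*, *Cnmd* and *Sox9*. *Matn2*, *Tnmd*, *Adamts4*, *Col11a1*, *Col11a2*, *Col27a1*, *Chadl* and genes given by counts alone were named after their values were seen. Alternatives were DESeq2 1.42.0, DESeq2 size factors, library size only, other filters, no fold limit, replicate number as a block, halved counts and each library left out.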

Additional observations from a re-analysis of the deposited data

How the results depend on the processing

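The log2 fold changes of the 8 tested cartilage genes kept their direction under every alternative in which the gene was tested. With each library left out in turn they lay between 6.89 and 7.74 for *Acan*, 6.51 and 7.18 for *Cnmd*, 1.87 and 1.92 for *Comp*, 0.72 and 0.81 for *Hapln1*, 0.52 and 0.68 for *Sox6*, 0.19 and 0.28 for *Sox9*, -0.26 and -0.15 for *Sox5* and -0.50 and -0.46 for *Prg4*. No scaling moved the median of all genes by more than 0.022. *Tnmd*, which did not pass, had log2 fold changes from -0.056 (without WT replicate 1) to 0.61 (without WT replicate 3). Of 778 values of 61 other named genes, 25 values of 8 genes no longer had an adjusted p below 0.05.

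Without the fold limit, 3445 genes were called higher and 3285 lower, against 1124 and 796 with it, and over the 7 lists together 29 and 18 against 15 and 4. By list, the lower calls became 2 for lecticans and link proteins, 1 for COMP and matrilin relatives, 1 for other matrix genes and 2 for collagens, and the calls became 9 higher and 4 lower for regulators, 6 higher and 5 lower for chondroitin sulfate synthesis, and 2 higher and 3 lower for proteases. With at least 10 counts in every library, 522 genes were called lower and 9 of the 7 lists higher, and by list 1 COMP or matrilin relative, 3 other matrix genes, 1 chondroitin sulfate gene and 3 collagens were called higher and 1 protease lower. This filter drops genes near 0 in either genotype, so fewer genes were tested. *Acan* and *Cnmd* were dropped for their WT counts. The protease *Adamts15* was dropped for its 0, 0 and 2 counts in the cKO-labelled libraries. The cause of the other changes was not tested. With at least 1 count in all libraries together, 2 regulators were called lower, and with halved counts 1 COMP or matrilin relative higher. With 1 library left out, the number of regulators called higher ranged from 0 to 2 and that of chondroitin sulfate genes from 1 to 2.

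No shared deviation was seen between same-numbered libraries of the 2 genotypes, whose deviations correlated between -0.012 and -0.006. These values do not show whether the cultures were set up in pairs. With the replicate block, 1087 genes were called higher and 772 lower, 15 and 4 of the 7 lists. Among named genes, *Sp7* no longer passed (adjusted p = 0.0548). Values of *Matn3* and *Chad*, and of *Acan* and *Cnmd* in WT, rest on 0 to 27 counts per library, so their ratios are imprecise.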
